A study of Mus musculus with 2 samples.

Results

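The Ccl8 Mrc1 C1q macrophages are a group of myeloid cells of the mouse rib callus at 4 days post injury (dpi), and 1122 of the 21259 cell barcodes in the scRNAseq data belong to it. Of these cells, 477 came from the control library and 645 from the Smo cKO library. They were chosen by measured values. Among barcodes with at least 200 detected genes and under 10% of counts on mitochondrial genes, myeloid cells were those with at least 3 unique molecular identifiers (UMIs, each a counted RNA molecule) of Tyrobp and Fcer1g together, under 2% of UMIs on Col1a1, Col1a2 and Col3a1, and 0 UMIs of Siglech, Cd3g and Nkg7. The 5044 myeloid cells were scored on 5 sets of 4 genes, each gene as a z-score of its log-normalized level. A cell was kept where the mean of Ccl8, Mrc1, Fcrls and C1qa was its highest set mean and exceeded 0.3. The other sets were one that includes Spp1, Gpnmb and Cd36, then H2-Eb1, H2-Ab1, Cd74 and Ccr7, then Acp5, Ctsk, Atp6v0d2 and Mmp9, and last S100a8, S100a9, Ngp and Retnlg. Because the 20 genes of these sets chose the cells, their values are descriptions.

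All mice were adults that carried Sox9:CreER and the R26:tdTomato reporter, received tamoxifen before surgery and had a large-scale rib resection. Controls were Smo flox/+ and Smo cKO mice were Smo flox/flox, so that both genotypes carried Cre and at least 1 floxed Smo allele. Calluses of 3 animals were pooled by genotype into 1 library each, and animals cannot be separated. There is therefore no replicate of either genotype. Differences between the libraries have no test, and genotype, pooled animals and library preparation cannot be told apart. CreER is driven by Sox9, a gene of the skeletal lineage, and whether any macrophage recombined was not tested.

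Macrophages enter injured bone early, take up dead cells and red cells, and secrete chemokines and growth factors. C1qa, C1qb and C1qc encode the chains of C1q, which starts the classical complement pathway and tags dying cells for uptake. Mrc1 encodes the mannose receptor CD206, an endocytic lectin typical of tissue macrophages, Ccl8 encodes a chemokine that attracts monocytes and lymphocytes, and Fcrls encodes a scavenger receptor-like protein related to Fc receptors. Smo carries the Hedgehog signal inside cells that receive it.

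The macrophages held 1343917 UMIs in control and 2478095 in Smo cKO cells. The median cell had 2491 UMIs and 1044 genes in the control, with 513 to 14367 UMIs. In the Smo cKO library it had 3407 UMIs and 1246 genes, with 585 to 29618 UMIs, so that Smo cKO cells were sampled more deeply. Median mitochondrial shares were close, at 2.97% and 2.77%. The libraries shared 613 barcode sequences, of which 3 marked control and 7 marked Smo cKO macrophages, and none marked macrophages of both. In 486 of the shared pairs 1 barcode had over 20 times the UMIs of the other. Leaving the shared barcodes out gave a share difference of 4.11 percentage points in place of 3.99, and 46 genes higher and 27 lower by genotype in place of 46 and 25.

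Levels are given as CPM, the UMIs of a gene for every 1000000 UMIs of the same cells, summed over a library. Ratios are on the log2 scale, Smo cKO over control unless stated, with exact 95% intervals that treat both UMI counts as Poisson. Intervals cover counting error only, not the spread between animals.

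The defining genes separated these cells from the other myeloid cells, as the rule fixed. Ccl8 (chr11:82115185-82116799 on GRCm38) was at 1893 CPM in control and 1884 CPM in Smo cKO macrophages, against 42.0 and 91.1 CPM in the Spp1 Gpnmb cells, the 1010 cells highest in the set of Spp1 and Gpnmb (337 control and 673 Smo cKO). Mrc1 (chr2:14229392-14332057) was at 619.8 CPM in control and 341 CPM in Smo cKO macrophages, against 92.9 and 94.6 CPM in those cells. Fcrls was at 596 CPM in control and 762 CPM in Smo cKO macrophages, and C1qa at 3012 CPM in control and 4099 CPM in Smo cKO macrophages. Of the 4 genes, Mrc1 was the one with a lower level in the Smo cKO library (log2 ratio -0.86, with the upper bound at -0.72), while Ccl8 was near 0 (log2 ratio -0.01, -0.08 to 0.06), with a sign that turned under several alternatives, and Fcrls and C1qa were higher by 0.35 and 0.44. To see each gene in cells it had not helped to choose, the score was repeated on the other 3. Mrc1 was then at 532 and 270.5 CPM, a log2 ratio of -0.98. Ccl8 was then at 1568 and 1487 CPM, against 117 and 169.7 CPM in Spp1 Gpnmb cells chosen in the same way. The lower Mrc1 level in the Smo cKO library was thus also present when Mrc1 took no part in the choice.

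Most cells carried some but not all of the defining genes. All 4 were found in 153 control and 198 Smo cKO macrophages, 3 in 197 and 270, 2 in 126 and 175, and 1 in 1 and 2 cells. The score ran from just above its threshold to 2.80 in control and 2.96 in Smo cKO cells, with medians of 1.07 and 1.03. A class made from a score is a range, and cells lay on both sides of the threshold. In the 70 cells within 0.1 above the threshold Mrc1 was at 202 CPM and Apoe, the main lipid carrier protein of macrophages, at 12910.1 CPM. In the 59 cells within 0.1 below it they were at 97.7 and 10580.1 CPM. C1qa was at 1983 CPM inside and 1677 CPM outside, while Fcrls (202 and 216 CPM) and C1qb (2202 and 2258 CPM) were slightly higher outside. The second-highest set was most often that of Spp1 and Gpnmb, in 172 of 477 control and 340 of 645 Smo cKO cells.

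**Figure D1:**
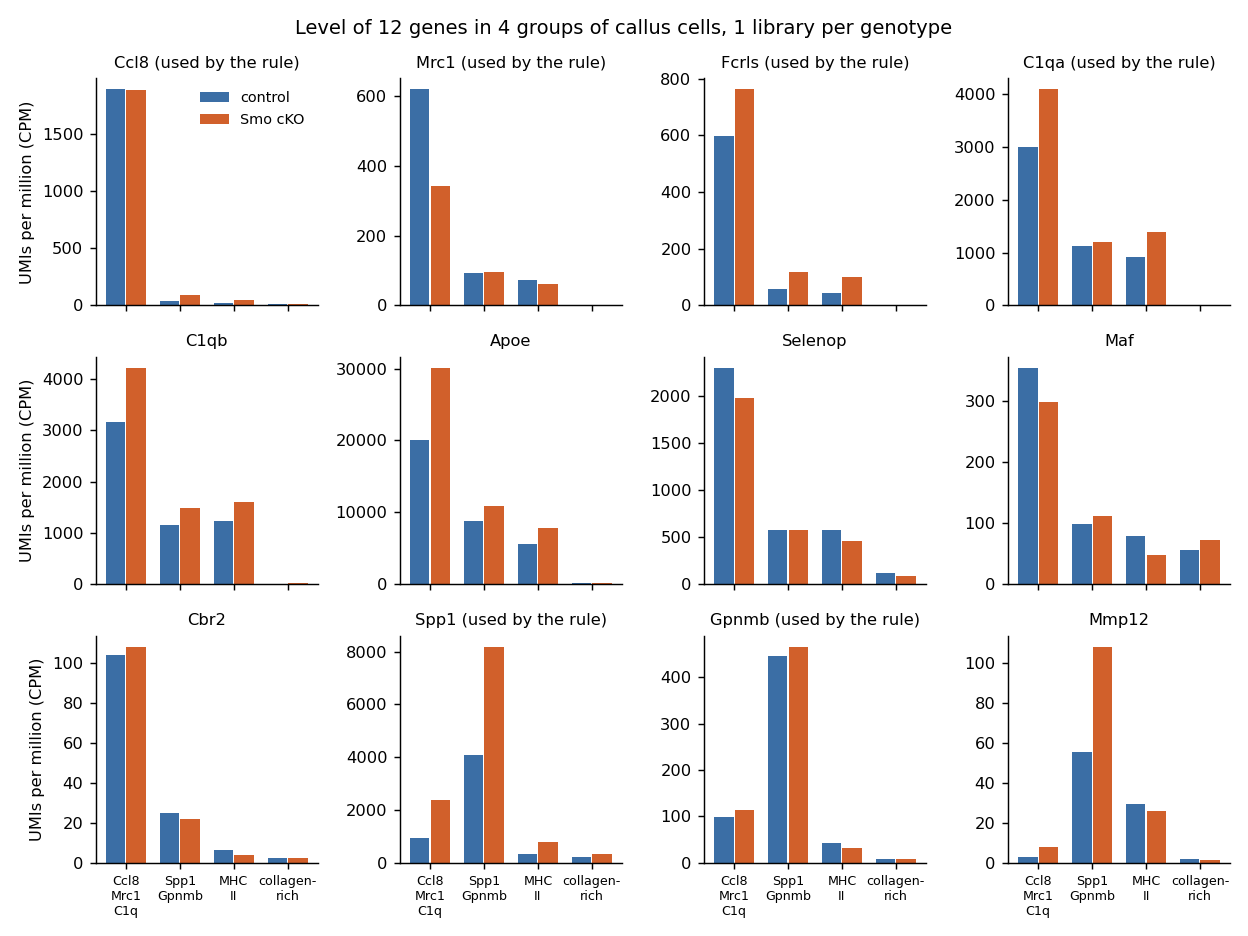
Bars give the level of 12 genes, in CPM (linear axis from 0), in 4 groups of callus cells, with the control library in blue and the Smo cKO library in orange; there are no error bars because each genotype is 1 library. Ccl8, Mrc1, Fcrls and C1qa are high in the first group because they chose it, and C1qb, Apoe, Selenop, Maf and Cbr2, which did not, are also highest there in both libraries. C1qb runs with the rule gene C1qa, so its level there is shaped by the choice of cells.

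Genes that the rule did not use also marked the cells as macrophages. Csf1r, the receptor for the main macrophage growth factor, was at 559 CPM in control and 450.3 CPM in Smo cKO macrophages. Adgre1, which encodes F4/80, was at 278 CPM in control and 279 CPM in Smo cKO macrophages, and both genes were under 10 CPM in the collagen-rich connective cells of the same libraries. Ms4a7 was at 1299 CPM in control and 2104 CPM in Smo cKO macrophages, and Aif1 at 625 CPM in control and 789 CPM in Smo cKO macrophages. Markers of long-lived resident macrophages were uneven. Folr2, a folate receptor of perivascular macrophages, was at 90.8 CPM in control and 115 CPM in Smo cKO macrophages, and Cbr2 at 104 CPM in control and 108 CPM in Smo cKO macrophages. Lyve1, the hyaluronan receptor of perivascular macrophages, reached only 20.8 and 10.9 CPM. Timd4, a phosphatidylserine receptor of resident macrophages, had 1 UMI in control and 0 in Smo cKO cells, and Vsig4 had 10 and 2 UMIs. Ly6c2, the classical monocyte marker, had 5 and 12 UMIs, and Ccr2 was at 31.3 and 41.2 CPM. The 12 genes of the classical monocyte list summed to 606 and 434 CPM, led by Thbs1 at 386 and 196 CPM. Folr2 and Cbr2 were thus present, while Timd4, Vsig4 and Ly6c2 were at trace level.

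RNA of other cells was described by marker lists. Some listed genes also took part in the choice of cells, so the sums are in part fixed by it. These are Col1a1, Col1a2 and Col3a1 for connective tissue, and the sets with S100a8 and with Acp5 for neutrophils and osteoclasts. They also include Ccr7 and Siglech for dendritic cells and Cd3g and Nkg7 for lymphocytes. The collagen-rich cells were themselves chosen by collagen genes at 2% or more of UMIs and under 3 UMIs of Tyrobp and Fcer1g. The 10 connective tissue genes summed to 3753 and 3459 CPM, led by Sparc at 859 CPM in control and 829.7 CPM in Smo cKO macrophages, compared with 50465 and 48821 CPM in the collagen-rich cells. The 9 erythroid and platelet genes summed to 4626 and 5529.6 CPM, led by the globin Hbb-bs at 2282 CPM in control and 2590.3 CPM in Smo cKO macrophages, with Gp9 at 0 UMIs. The 9 muscle genes summed to 49.1 and 133 CPM and were higher in the Smo cKO library, led by Acta1 at 13.4 and 38.7 CPM. Lists for neutrophils (led by S100a8 at 29.0 and 35.1 CPM) and osteoclasts (led by Acp5 at 106 and 106 CPM) summed to 82.6 and 101 CPM and to 196 and 174 CPM. Those for dendritic cells, endothelium, lymphocytes and mast cells summed to at most 30.7 CPM in either library, and the mast cell receptor genes Fcer1a and Ms4a2 had 0 UMIs. The part of this RNA in the results was not tested.

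The macrophages made up a larger share of myeloid cells in the Smo cKO library. They were 477 of 2370 myeloid cells in the control (20.1%, exact Clopper-Pearson 95% interval 18.5 to 21.8%). In the Smo cKO library they were 645 of 2674 (24.1%, 22.5 to 25.8%), 3.99 percentage points higher (Newcombe interval 1.70 to 6.27). Among all cells that passed the quality filters the shares were 4.74% and 6.78%. The interval of the myeloid difference included 0 when cells with over 2000 genes, the upper limit in the study's methods, were left out (2.32 points, -0.356 to 4.98), and when Fcrls was left out of the score (1.91 points, -0.332 to 4.14). Such large cells were 2.10% of control and 6.98% of Smo cKO macrophages. The Spp1 Gpnmb cells differed by more, from 14.2% to 25.2% of myeloid cells, and the cells highest in MHC class II genes were the smaller group in the Smo cKO library (21.5% and 12.2%).

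The nearest group of cells was the Spp1 Gpnmb macrophages, and the comparison with them describes what else went with the Ccl8 Mrc1 C1q set. Of 2303 genes at 50 CPM or more, called the level from here on, and with the 20 genes of the rule left out, 69 (3.00%) were at least 2-fold higher in the Ccl8 Mrc1 C1q macrophages in both libraries and 38 (1.65%) at least 2-fold lower. The cells were chosen by their RNA, so these counts are descriptions. The median log2 ratio over all genes was 0.01 in control and -0.05 in Smo cKO cells.

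Among these genes the highest ratio in both libraries was that of Ccl12, a ligand of the monocyte receptor Ccr2, at 407 CPM in control and 847 CPM in Smo cKO macrophages, against 28.6 and 149 CPM in the Spp1 Gpnmb cells (log2 ratios 3.83 and 2.51 in control and Smo cKO libraries). Ccl4 was at 1262 and 1834 CPM, against 408 and 860.3 CPM. Of 8 CC chemokine genes that reached the level, 2 passed 2-fold, while Ccl7 (log2 ratios 1.83 and 0.95), Ccl2 (log2 ratios 1.33 and 0.69) and Ccl5 (log2 ratios 1.61 and 0.74) passed in the control library alone. Of 7 CXC chemokine genes, 3 were at least 2-fold lower and 1 at least 2-fold higher. Cxcl3 was at 67.0 and 92.4 CPM, against 400.4 and 596 CPM in the Spp1 Gpnmb cells, and Cxcl1 and Cxcl14 were the others at least 2-fold lower. Cxcl2, an abundant neutrophil attractant, differed less (log2 ratios -0.36 and -0.69), and Cxcl16 was higher by less than 2-fold (log2 ratios 0.54 and 0.54). The interferon-induced Cxcl10 was the one past 2-fold higher, at 107 and 190.1 against 38.4 and 61.4 CPM.

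The C1q chains not used by the rule had ratios like that of C1qa. They run with C1qa, so their ratios are shaped by the choice of cells. C1qb was at 3159 CPM in control and 4218 CPM in Smo cKO macrophages (log2 ratios 1.46 and 1.50) and C1qc at 2014 and 2633 CPM (log2 ratios 1.38 and 1.47), beside log2 ratios 1.41 and 1.76 for C1qa, the chain used by the rule. They were the 2 of 6 complement genes past 2-fold, and 2 of the 6 had lower values in both libraries, near the 920 of 2303 among all genes, among them C3ar1, a receptor for a complement fragment (log2 ratios -0.10 and -0.19). C4b, an early component of the classical pathway, was below the level in the Smo cKO library but stood at 61.0 and 45.2 CPM against 4.47 and 7.25 CPM. Fcgrt, which encodes the neonatal Fc receptor that salvages antibody and albumin, was at 235 and 225 CPM against 31.3 and 52.6 CPM. Selenop, the secreted selenium carrier, was at 2304 CPM in control and 1980.2 CPM in Smo cKO macrophages, against 576 and 575 CPM. Trf, which encodes transferrin, was at 214 and 228 CPM against 77.7 and 78.6 CPM.

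Of 12 perivascular and tissue-resident macrophage genes at the level, 6 were at least 2-fold higher in both libraries and none at least 2-fold lower. Among the 6 were Cbr2, Gas6, Stab1, Selenop and Maf. Maf, a transcription factor of mature macrophages, was at 353 CPM in control and 297 CPM in Smo cKO macrophages, against 98.3 and 112 CPM (log2 ratios 1.85 and 1.41). Gas6, a bridge between dying cells and the Mertk and Axl receptors, was at 289 and 212 CPM against 84.9 and 96.1 CPM. Pf4 was not among them, at 6609 and 5829 CPM against 6944 and 7445 CPM in the Spp1 Gpnmb cells. Tmem176a and Tmem176b, neighboring genes for membrane proteins of myeloid cells, were also among the highest ratios, with Tmem176b at 295 and 312 CPM against 46.5 and 61.4 CPM.

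Lipid genes divided. Apoe was at 20108 CPM in control and 30100.5 CPM in Smo cKO macrophages, against 8800.0 and 10794 CPM (log2 ratios 1.19 and 1.48), and Pltp, the phospholipid transfer protein gene, had log2 ratios 1.31 and 1.41. Lpl, Lgals3 and Cd9 were at least 2-fold lower, with Cd9 at 102 and 129 CPM against 403 and 342 CPM. The phagocyte receptor gene Trem2 differed little (log2 ratios 0.13 and 0.11). Of 18 lysosome genes none was higher past 2-fold and 1 was lower, the protease gene Ctsl (log2 ratios -1.36 and -1.40).

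All 14 glycolysis and hypoxia genes at the level had lower values than in the Spp1 Gpnmb cells in both libraries, against 920 of 2303 among all genes, and 5 of them were at least 2-fold lower, against 38 of 2303. Pgk1, a glycolytic kinase, was at 160.0 CPM in control and 187 CPM in Smo cKO macrophages, against 436 and 426 CPM. Bnip3, a hypoxia-induced mitophagy receptor, was at 51.3 and 56.5 CPM against 189 and 166 CPM, and Vegfa, the endothelial growth factor, at 46.9 and 47.2 against 109 and 108 CPM. Hmox1, which breaks down heme, was at 2066 CPM in control and 1551 CPM in Smo cKO macrophages, lower than the 4871 and 3616 CPM of the Spp1 Gpnmb cells (log2 ratios -1.24 and -1.22), and the ferritin genes Ftl1 and Fth1 were lower by less than 2-fold. The summed erythroid list was higher in the Ccl8 Mrc1 C1q macrophages, at 4626 and 5529.6 CPM against 2507 and 4059 CPM.

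Of 13 matrix and remodelling genes, 11 had lower values in both libraries, against 920 of 2303 among all genes, and 2 passed 2-fold. Mmp12, the macrophage elastase gene, had the lowest ratios, at 2.98 and 8.07 CPM against 55.4 and 108 CPM. Fn1, fibronectin, was at 289 and 246 CPM against 899 and 658 CPM. The 9 inflammatory genes went both ways, with 3 higher and 3 lower in both libraries, near the 822 and 920 of 2303 among all genes. Past 2-fold, Il1b was the lower one and Cd86, a costimulatory receptor, the higher (log2 ratios 1.55 and 1.50). Il1b was at 42.4 and 60.1 CPM against 166 and 343 CPM. Of 17 immediate early and dissociation genes, 5 were past 2-fold higher in both libraries (Btg2, Jun, Nr4a1 and the near-identical pair Hspa1a and Hspa1b, uncertain between copies), and 16 had a ratio above 0 in both, against 822 of 2303 among all genes. These genes are known to respond to tissue digestion, and their part in the ratios was not tested.

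**Figure D2:**
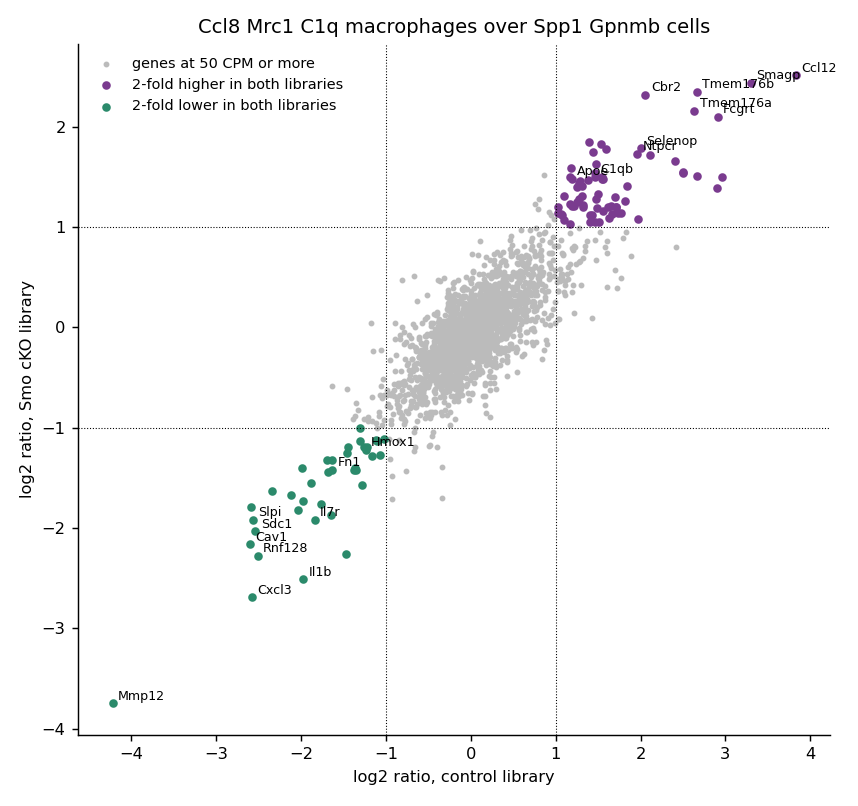
Each point is a gene at 50 CPM or more, placed by its log2 ratio of the Ccl8 Mrc1 C1q macrophages over the Spp1 Gpnmb cells in the control library (x axis) and the Smo cKO library (y axis), with dotted lines at 2-fold. The 69 genes higher in both libraries (purple) include Ccl12, Fcgrt and Selenop, and the 38 lower in both (green) include Mmp12, Cxcl3 and Cav1.

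Between the genotypes, interferon-stimulated genes stood out in the macrophages. Of 2537 genes at 50 CPM or more in at least 1 library, 46 (1.81%) stood 2-fold or more higher in Smo cKO cells and 25 (0.985%) 2-fold or more lower, and the median log2 ratio was -0.08. The lower count depended on the processing, with 62 higher and 55 lower in thinned cells, 53 and 51 at a score threshold of 0.6, and 43 and 40 by the mean of single-cell CPM. A list of 25 interferon-stimulated genes supplied 13 of the 46. All 25 had a ratio above 0 with an interval above 0, and 24 were at least 2-fold higher whatever their level. The 14 that reached 50 CPM had a median log2 ratio of 1.66. The list's summed level was 1666 CPM in control and 4174 CPM in Smo cKO cells. The list was written with high Smo cKO values of such genes already known from these libraries, so it is not independent evidence of its direction.

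Promoters of interferon-stimulated genes are known to hold the interferon-stimulated response element (ISRE), to which interferon-activated transcription factors bind. The 250 bases before the start of 3 of them, from RefSeq on GRCm38.p6, are shown because each holds repeats of the ISRE letters on either strand: GAAA, then any 2 bases, then GAAA again. Capitals mark the matches. The windows are chr19:34583279-34583528 on the + strand, chr4:156200819-156201068 on the − strand and chr8:71537473-71537722 on the − strand, and each reads 5′ to 3′ toward the gene.
Ifit3: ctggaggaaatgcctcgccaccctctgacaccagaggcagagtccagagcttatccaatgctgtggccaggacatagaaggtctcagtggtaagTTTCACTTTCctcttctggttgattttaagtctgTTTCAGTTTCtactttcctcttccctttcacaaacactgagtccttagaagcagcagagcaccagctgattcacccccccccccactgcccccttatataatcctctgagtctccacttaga
Isg15: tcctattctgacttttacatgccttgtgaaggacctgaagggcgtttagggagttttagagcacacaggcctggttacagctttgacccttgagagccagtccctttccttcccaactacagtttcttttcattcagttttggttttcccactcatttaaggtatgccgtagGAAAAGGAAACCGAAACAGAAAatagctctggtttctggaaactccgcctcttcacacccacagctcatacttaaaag
Bst2: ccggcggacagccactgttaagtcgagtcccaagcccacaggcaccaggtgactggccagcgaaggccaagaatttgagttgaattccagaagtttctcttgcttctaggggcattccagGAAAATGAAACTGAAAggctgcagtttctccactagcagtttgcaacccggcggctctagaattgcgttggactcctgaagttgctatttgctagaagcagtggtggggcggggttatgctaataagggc
In Ifit3 the matches begin 156 and 122 bases before the start. In Isg15 there are 3 that overlap, from 78 bases before the start, and in Bst2 there are 2 that overlap, from 130 bases. Counts are of genes, and a match in any RefSeq promoter of a gene was enough. The motif was present for 11 of the 37 genes with a promoter among the 46 higher genes (29.7%), and for 9 of 20 of the interferon list (45%). It was present for 83 of 2015 genes with a promoter among all genes tested (4.12%), and for 936 of 27025 genes in all (3.46%). Among the 25 lower genes it was present for 0 of the 18 with a promoter. Irf7, Oasl1, Oasl2, Ifitm3 and Xaf1 have no match in this window. A motif of the macrophage factor PU.1, GAGG followed directly by AAGT on either strand, was present in 4 of the 37 (10.8%) and in 67 of the 2015 (3.33%). A match describes the sequence and does not show that a factor binds there.

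Ifit3, which encodes an inhibitor of viral RNA translation, had the highest ratio of all genes at the level. It has a near-identical copy, Ifit3b, and how reads were split between them is uncertain. It was at 5.95 CPM in control and 84.3 CPM in Smo cKO macrophages, from 8 and 209 UMIs (log2 ratio 3.82, 2.82 to 5.06). Isg15, a ubiquitin-like protein, was at 49.9 CPM in control and 237 CPM in Smo cKO macrophages (log2 ratio 2.25, 1.88 to 2.64). Irf7, the transcription factor that amplifies the type I interferon response, was at 49.1 CPM in control and 229 CPM in Smo cKO macrophages (log2 ratio 2.22, 1.85 to 2.61). These 3 genes were low in control and several-fold higher in the Smo cKO macrophages. Zbp1, a sensor of nucleic acid, was at 24.6 and 105 CPM, and Rsad2, which encodes viperin, at 47.6 and 128 CPM. The genes with a high control level differed less in ratio. Ifitm3 was at 882 CPM in control and 1830.0 CPM in Smo cKO macrophages (log2 ratio 1.05, 0.96 to 1.15), and Bst2, the tethering protein of budding viruses, at 298 CPM in control and 639.6 CPM in Smo cKO macrophages (log2 ratio 1.10, 0.94 to 1.27). The interferon receptor genes differed by less than 2-fold, with Ifnar1 at 57.3 and 52.5 CPM, Ifnar2 at 96.7 and 110.2 CPM, and Ifngr1 at 96.7 and 123 CPM (log2 ratio 0.35, 0.05 to 0.66).

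The direction was shared with the other groups of cells examined. All 25 genes of the list had a ratio above 0 in the Spp1 Gpnmb cells, in the MHC class II cells and in the collagen-rich cells. Their summed level was 905 and 2664 CPM in the Spp1 Gpnmb cells, and 1488 and 2807 CPM in the collagen-rich cells. The difference in interferon genes was thus not limited to these macrophages. Of all 46 higher genes, 45 had a ratio above 0 in the Spp1 Gpnmb cells and 34 were 2-fold higher there too, beside 1230 and 55 of all 2537 genes. Of the 25 lower genes, 21 had a ratio below 0 in the Spp1 Gpnmb cells and 2 were 2-fold lower, beside 1307 and 2 of all 2537.

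**Figure D3:**
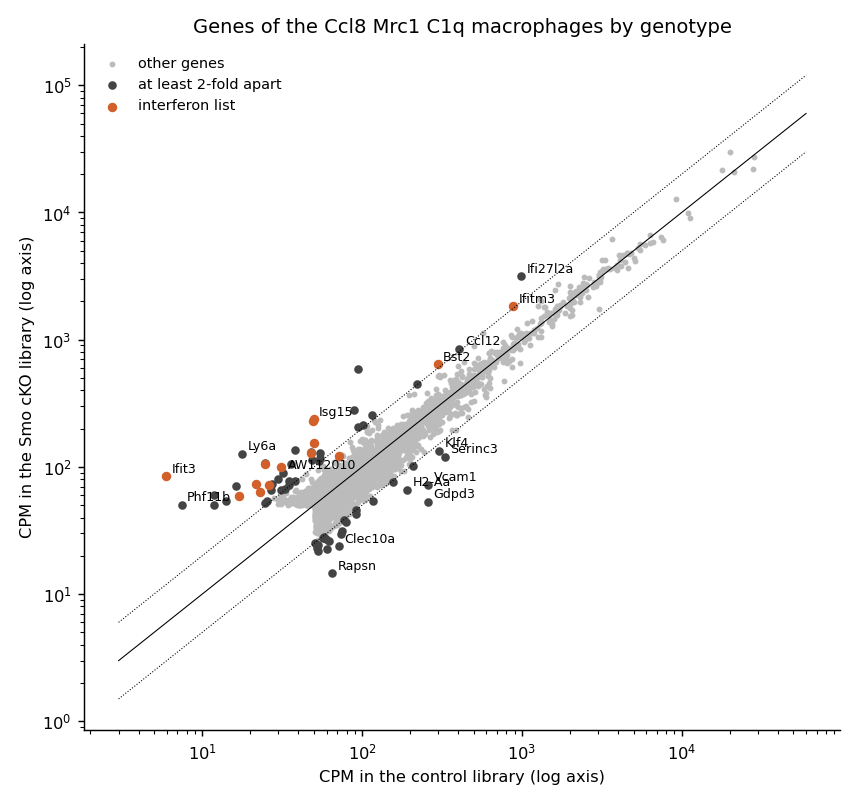
Each point is a gene of the Ccl8 Mrc1 C1q macrophages at 50 CPM or more in at least 1 library, by its CPM in the control (x axis) and Smo cKO library (y axis), both on log axes; the solid line is equality and dotted lines are 2-fold. The interferon list (orange) lies above the upper dotted line for 13 of its 14 genes plotted, while Gdpd3, Rapsn, Vcam1, Clec10a and H2-Aa lie below the lower line.

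Of 5 Fc receptor genes at the level, 2 were at least 2-fold higher in the Smo cKO library, and of 5 chemokine receptor genes 1 was. Among all 2537 genes 46 were. A ratio above 0 was found for 4 of the 5 and 3 of the 5, beside 1069 of all 2537 genes. Fcgr1, the high-affinity IgG receptor, was at 93.8 CPM in control and 207 CPM in Smo cKO macrophages (log2 ratio 1.14, 0.86 to 1.44). Fcgr4 was at 47.6 CPM in control and 132 CPM in Smo cKO macrophages (log2 ratio 1.47, 1.08 to 1.88). Fcgr2b, the inhibitory IgG receptor, was level at 518 and 520.2 CPM, so the IgG receptors had unequal ratios. Fcgr1 and Fcgr4 had like ratios in the Spp1 Gpnmb cells (1.07 and 1.40). Cx3cr1, the fractalkine receptor, was at 101 CPM in control and 213 CPM in Smo cKO macrophages (log2 ratio 1.07, 0.80 to 1.35), with a ratio of 0.62 in the Spp1 Gpnmb cells. Cd72, a lectin-like inhibitory receptor, was at 24.6 and 107 CPM, and Ly6a, the gene of the Sca-1 antigen, at 17.9 and 126 CPM. Phf11b (7.44 and 50.4 CPM) and Ifi209 (16.4 and 70.2 CPM) belong to families of near-identical genes and are uncertain for that reason, as is the ribosomal protein copy Gm10036.

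Among chemokines, 1 of 8 CC genes was past 2-fold higher, beside 46 of all 2537 genes. This was Ccl12 (log2 ratio 1.06, 0.92 to 1.20). It was at 2.38 in the Spp1 Gpnmb cells, where its level was much lower. Ccl2 was higher by 0.60, Ccl4 by 0.54 and Cxcl10 by 0.83, while Ccl6 was lower (log2 ratio -0.38, -0.52 to -0.23). Ccl2 was at 438 and 663 CPM in these macrophages. It was more abundant in the collagen-rich cells and also higher in the Smo cKO library there, at 1353 and 2329 CPM. The part of free RNA in its ratio was not tested. Cxcl9, an interferon gamma target, had 1 UMI in control and 28 in Smo cKO cells (log2 ratio 3.92, 1.33 to 9.28). Cxcl13, which draws B cells, had 12 UMIs in control and 0 in Smo cKO cells. The cytokine gene Tnf was at 158 and 139 CPM and Il10 at 83.3 and 102 CPM, and none of 9 inflammatory genes at the level passed 2-fold.

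Of 7 lectin and scavenger receptor genes at the level, 1 was past 2-fold lower in Smo cKO cells, none past 2-fold higher, and 3 had a ratio above 0, among them Clec4a3 (log2 ratio 0.51, 0.25 to 0.77). Among all 2537 genes 25 were past 2-fold lower and 1069 had a ratio above 0, and the list's share above 0 was near that. The one past 2-fold was Clec10a, a galactose-binding lectin, at 71.4 CPM in control and 23.8 CPM in Smo cKO macrophages (log2 ratio -1.59, -2.08 to -1.10). Some genes under the level had lower values too, from few UMIs. Cd163, the hemoglobin-haptoglobin scavenger receptor, had 62 UMIs in control and 22 in Smo cKO cells (46.1 and 8.88 CPM, log2 ratio -2.38, -3.15 to -1.66). The lectin Cd209f had 23 and 4 UMIs (log2 ratio -3.41, -5.40 to -1.86), and Mgl2 had 14 and 3 UMIs (log2 ratio -3.11, -5.55 to -1.26). Relative to depth each of these genes was lower in Smo cKO cells, as was Lyve1 (28 and 27 UMIs, log2 ratio -0.94, -1.75 to -0.12). Cd5l, a gene of the same lectin and scavenger list also under the level, went the other way (4 and 19 UMIs, log2 ratio 1.37, -0.22 to 3.38). Of 12 resident macrophage genes at the level 4 had a ratio above 0, near the 1069 of 2537 among all genes, and none passed 2-fold in either direction. The lowest were Ednrb, an endothelin receptor (log2 ratio -0.85, -1.14 to -0.55), F13a1, the clotting factor XIII subunit (log2 ratio -0.55, -0.71 to -0.38), and Gas6 (log2 ratio -0.45, -0.64 to -0.26). Folr2 was at log2 ratio 0.34, 0.03 to 0.65, Cbr2 at log2 ratio 0.05, -0.25 to 0.36, and Stab1, a scavenger receptor, at log2 ratio -0.22, -0.42 to -0.03. The median log2 ratio of the 12 was -0.22, beside -0.08 over all genes.

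Vcam1, an adhesion receptor for leukocytes that some tissue macrophages carry, was at 260.4 CPM in control and 72.6 CPM in Smo cKO macrophages (log2 ratio -1.84, -2.11 to -1.58). In the Spp1 Gpnmb cells it was at 34.9 and 27.8 CPM, and in the collagen-rich cells at 114 and 103 CPM. Klf4, a transcription factor of macrophage polarization, was at 304 CPM in control and 134 CPM in Smo cKO macrophages (log2 ratio -1.18, -1.39 to -0.97), with a ratio of 0.10 in the Spp1 Gpnmb cells, while it was at 279.6 and 156 CPM in the collagen-rich cells. Gdpd3, a lysophospholipase gene, had the lowest ratio of the genes at the level, at 258 CPM in control and 53.3 CPM in Smo cKO macrophages (log2 ratio -2.28, -2.58 to -1.98), and it was lower in the Spp1 Gpnmb cells too (-1.50). Rapsn was at 64.7 and 14.5 CPM, and Serinc3 at 328 and 120.3 CPM. Abca1, the cholesterol exporter, was at 363 and 193 CPM (log2 ratio -0.91, -1.09 to -0.72), and the lysosomal cholesterol transporter Npc1 at 104 and 54.9 CPM (log2 ratio -0.92, -1.28 to -0.57). The lipid handling genes as a list were not lower. Of 13 at the level, 7 had a ratio above 0, beside 1069 of all 2537 genes, and none passed 2-fold, with a median log2 ratio of 0.07.

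Of the 2 MHC class II genes at the level that the rule did not use, H2-Aa was lower and H2-DMa higher in the Smo cKO macrophages. H2-Aa, a chain of the class II molecule, was at 192 CPM in control and 66.2 CPM in Smo cKO macrophages (log2 ratio -1.54, -1.83 to -1.25). In the MHC class II cells it was at 6045 and 5381 CPM, and in the collagen-rich cells at 8.50 and 4.97 CPM. H2-DMa, which takes part in peptide loading, was at 63.2 and 95.6 CPM (log2 ratio 0.60, 0.23 to 0.97). Cells whose highest set was MHC class II were left out by the rule, so these are the cells that remained below that edge, and no value of the rule's own class II genes is used.

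Several abundant macrophage genes were higher in the Smo cKO library by less than 2-fold. Apoe was at 20108 CPM in control and 30100.5 CPM in Smo cKO macrophages (log2 ratio 0.58, 0.56 to 0.60), against 0.29 in the Spp1 Gpnmb cells. Lyz2, lysozyme, was at log2 ratio 0.47, 0.44 to 0.50, C1qb at log2 ratio 0.42, 0.37 to 0.47 and C1qc at log2 ratio 0.39, 0.32 to 0.45. Of 18 lysosome genes 14 had a ratio above 0, against 1069 of 2537 among all genes, and none passed 2-fold, with a median of 0.11. Among the larger ratios were those of the protease gene Ctsh (log2 ratio 0.81, 0.64 to 0.97) and of Cst3, the cathepsin inhibitor (log2 ratio 0.70, 0.63 to 0.77). Hmox1 was lower (log2 ratio -0.41, -0.48 to -0.34), as in the Spp1 Gpnmb cells (-0.43). Spp1, a rule gene that encodes osteopontin, was at 935 and 2357 CPM in these macrophages, and at 4081 and 8188 CPM in the Spp1 Gpnmb cells. The cell cycle genes Mki67 (9 and 39 UMIs) and Top2a (20.8 and 37.5 CPM) were low in both libraries.

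Of 9 growth factor and matricellular genes at the level, none passed 2-fold by genotype. Igf1 was at 211 and 224 CPM, Tgfb1 at 154 and 152 CPM, and Osm, oncostatin M, at 81.9 and 102 CPM (log2 ratio 0.31, -0.02 to 0.65). Gdf15 was higher (log2 ratio 0.47, 0.25 to 0.69). Pdgfb, a ligand for mesenchymal cells, was at 55.1 and 38.3 CPM (log2 ratio -0.52, -0.98 to -0.06).

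Components of the Hedgehog pathway were at trace level in these macrophages, and none of 11 reached 50 CPM. Smo had 7 UMIs in 477 control cells and 4 UMIs in 645 Smo cKO cells, 5.21 and 1.61 CPM, compared with 20.7 and 13.7 CPM in the collagen-rich cells. Which part of the Smo transcript the reads cover was not examined, so these counts do not check the deletion. Reporter RNA (TdTomato) was found as 1 UMI in each library, 0.210% and 0.155% of the macrophages, and in 0.686% and 1.89% of the collagen-rich cells. The collagen-rich cells were sampled more deeply, so these shares are not matched for depth. Relative to depth the reporter was at 0.744 and 0.404 CPM in the macrophages, and at 0.579 and 1.42 CPM in the collagen-rich cells. With 1 UMI per library, nothing is read from this.

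**Figure D4:**
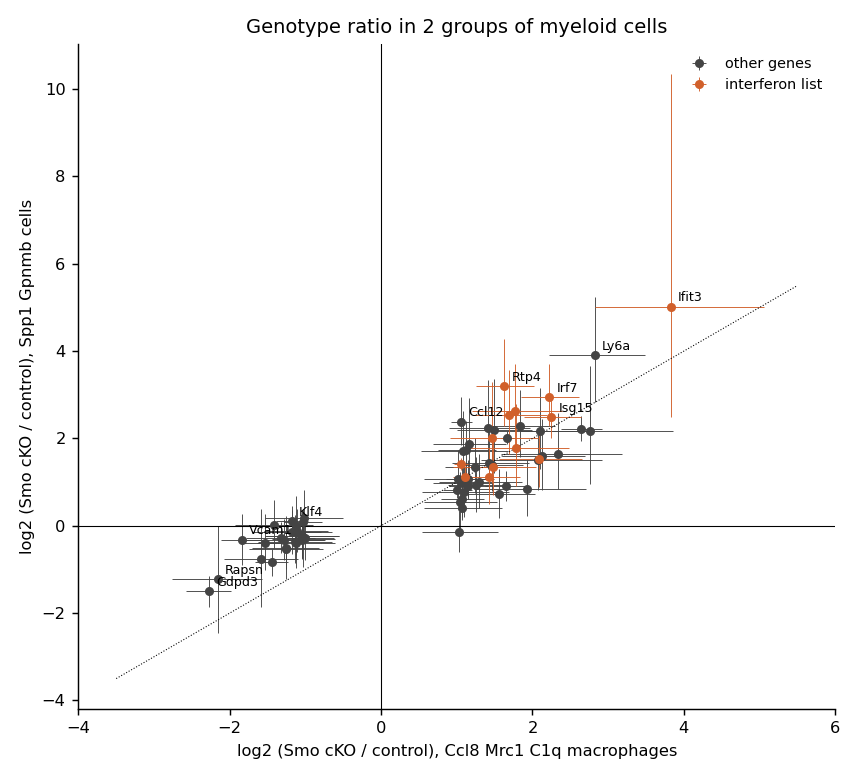
Each point is a gene at least 2-fold apart between the libraries in the Ccl8 Mrc1 C1q macrophages, by its log2 ratio of Smo cKO over control there (x axis) and in the Spp1 Gpnmb cells (y axis), with exact 95% Poisson intervals as bars. Interferon genes (orange) lie on the upper right in both, whereas Vcam1 and Klf4 lie far below 0 on the x axis and near 0 on the y axis.

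The share of cells with a UMI was compared after each cell was thinned to 1500 UMIs, because Smo cKO cells were deeper, which kept 423 control and 594 Smo cKO macrophages and left out 54 and 51. Mrc1 was found in 60.5% of control and 41.8% of Smo cKO macrophages, and in 80.5% and 66.2% before thinning (collagen-rich cells 0.235% and 0.203%). Ccl8 was found in 47.5% and 47.3% (collagen-rich cells 1.43% and 1.94%). Ccl12 was found in 22.5% and 42.3%, with 0.0853% and 0.406% of the collagen-rich cells, which should lack it and serve as the background of free RNA. Before thinning the shares were 31.4% and 54.6% of the macrophages and 0.807% and 2.61% of the collagen-rich cells. The collagen-rich cells had medians of 9965 and 11936 UMIs before thinning. Cx3cr1 was found in 11.1% and 26.6% of the macrophages (background 0.235% and 0.232%). Irf7 was found in 5.44% and 26.3% of the macrophages and in 0.682% and 4.81% of the collagen-rich cells, which themselves had higher interferon gene levels in the Smo cKO library and so are no measure of free RNA for this gene. Mrc1 and Ccl8 took part in the choice of the cells, so their shares are descriptions. Among genes that did not, Ccl12 and Cx3cr1 were found in more of the Smo cKO macrophages.

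Shares were also lower in the Smo cKO library for several genes with lower levels. Vcam1 was found in 27.0% of control and 8.59% of Smo cKO macrophages, and in 14.3% and 13.7% of the collagen-rich cells, which express it themselves. H2-Aa was found in 15.6% and 6.73%, and in 1.22% and 0.753% of the collagen-rich cells. Before thinning the gap was smaller, with 18.9% and 10.5% of the macrophages and 8.84% and 6.22% of the deeper collagen-rich cells. Cd163 was found in 6.38% and 1.18%, and Clec10a in 7.33% and 3.87%, against at most 0.0640% in the collagen-rich cells. Klf4, at 31.4% and 15.3%, was no more frequent than in the collagen-rich cells, which express it (32.1% and 21.3%).

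**Figure D5:**
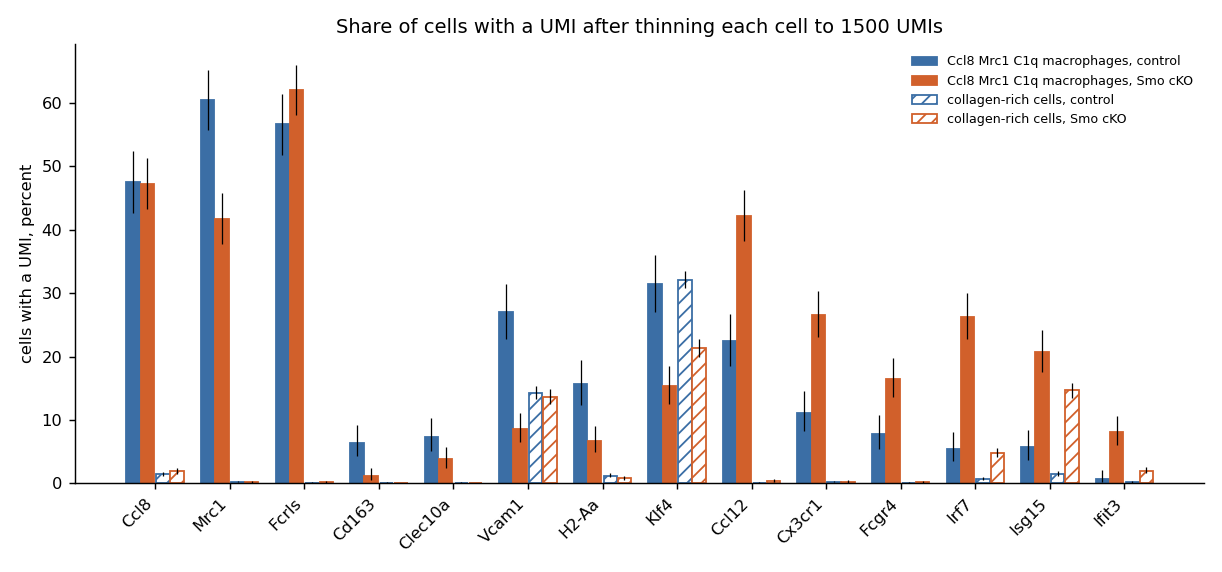
Bars give the percent of cells with at least 1 UMI of 14 genes after thinning each cell to 1500 UMIs, for the Ccl8 Mrc1 C1q macrophages (filled) and the collagen-rich cells (hatched) of the control (blue) and Smo cKO library (orange), with exact 95% binomial intervals. Mrc1, Vcam1 and H2-Aa are found in fewer Smo cKO macrophages, and Ccl12, Cx3cr1, Irf7 and Isg15 in more.

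Within the group, cells with a UMI of 1 gene were compared with the cells without it, as a description, since cells of a library are not replicates and deeper cells show more genes. Cells with Cd163 (43 of 477 in control and 17 of 645 in Smo cKO cells) had Ccl8 at 3935 CPM against 1664 CPM in the control, and at 3785 against 1813 CPM in the Smo cKO library. Lyve1 was at 66.3 against 15.7 CPM in the control cells, and Folr2 at 177 against 81.1 CPM. Median UMIs were 2750 and 2429.5 for these control cells. Cells with Clec10a (61 and 49) also had more Ccl8, at 4425 against 1493 CPM in control and 3789 against 1687 CPM in the Smo cKO library. Cells with Ifit3 had high Ccl8 as well, at 4117 CPM in 7 control cells and 2523 CPM in 101 Smo cKO cells. Ccl8 took part in the choice of the cells, so each relation with it here is shaped by the rule and nothing is read from it.

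Cells with Cx3cr1 (92 in control and 261 in Smo cKO cells) had Ccl8 at 1143 against 2122 CPM in the control, and at 1483 against 2225 CPM in the Smo cKO library. Hmox1, which the rule did not use, was at 1226 against 2322 CPM in control and 963 against 2050.0 CPM in the Smo cKO library. C1qb was at 3417 against 3079.9 CPM in control and 4883 against 3653 CPM in the Smo cKO library. C1qb runs with the rule gene C1qa, so that relation too is shaped by the choice of cells.

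In the Smo cKO library the 101 cells with Ifit3 had Isg15 at 594 against 154 CPM and Ccl12 at 1699 against 648 CPM, with median UMIs of 4035 and 3274. In the control library, the 7 cells with Ifit3 had Isg15 at 204 against 47.0 CPM. Their Ccl12 went the other way, at 122 against 412 CPM, from 3 UMIs.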

How the data were processed

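Per the paper and its processing notes, Cell Ranger 3.0.2 (mm10) was run by the authors, who deposited raw UMI counts per gene and barcode, without normalization, for 10747 control and 10512 Smo cKO barcodes (31054 features). Calluses were digested, depleted of dead cells and pooled by genotype. For this report, UMIs of the chosen cells were summed per library and divided by their total (CPM). Genes named are those of the rule and of 39 gene lists, and the 10 highest and 10 lowest of each comparison, with immunoglobulin, hemoglobin, ribosomal protein, mitochondrial and sex genes left out by symbol, which misses copies with Gm symbols. Some genes of the rule and the lists entered the calculations and are not reported here. The members and lists were chosen with earlier results of these data known. Where a count is 0, 3 counts are the limit. Gene coordinates are GENCODE's on GRCm38. The methods were tested on simulated counts. The doublet caller Scrublet (scanpy 1.11.5) marked 0 control and 1 Smo cKO barcode, so it had not worked, and doublets were not removed. Python 3.11.15, numpy 2.4.6, scipy 1.17.1 and pandas 2.3.3 were used. Alternatives were the gene limit, score threshold, z-scores per library, collagen and lymphoid filters, score without each marker, thinning, shared barcodes, CPM floor, centring on the median gene and mean single-cell CPM.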

Additional observations from a re-analysis of the deposited data

How the results depend on the processing

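The share difference and the 40 genes run under the alternatives, the 10 highest and 10 lowest of each comparison, kept their direction, and most other named genes were not run. The genotype log2 ratio of Ccl8, -0.01, did not, and lay between -0.14 with Mrc1 left out of the score and 0.23 in thinned cells. List medians close to 0 also changed sign under some alternatives (complement, cytokine receptors, growth factors, heme and iron, inflammatory, lipid and connective genes). The share difference was 6.34 percentage points with Mrc1 left out of the score, and it lay between 1.91 and 6.34 points over all alternatives. Of the genes 2-fold apart by genotype, 106 were higher and 100 lower with a floor of 20 CPM, and 25 higher and 8 lower with a floor of 100 CPM, as fewer genes are tested at a higher floor. The count of lower genes, 25, was the less stable: 44 with cells over 2000 genes left out, 51 at a score threshold of 0.6, 55 in thinned cells and 40 by the mean of single-cell CPM, and the cause was not tested. Centring on the median gene gave 53 higher and 18 lower. Against the Spp1 Gpnmb cells, 111 genes were higher and 63 lower with a floor of 20 CPM. Between 12 and 14 interferon genes passed 2-fold in the alternatives that kept the floor of 50 CPM. Among 640 values of named genes under alternatives, 614 stayed within their counting interval and 26 moved. Scrublet gave no value. No paired analysis was possible because each genotype is 1 library and the results come from no test. With 3 pooled animals a genotype, no spread between animals is known, and genes under about 50 CPM rest on few UMIs in the control macrophages.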
